A study of Homo sapiens with 4 samples.

Results

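The 10 genes described here encode factors of histone gene transcription and of histone mRNA 3' end formation: SLBP, NPAT, CASP8AP2, LSM10, LSM11, ZNF473, CPSF2, CPSF3, SYMPK and CSTF2. They were chosen by symbol, as 10 of the 40205 rows of the deposited table. Poly(A) RNA was sequenced from 2 human glioblastoma cell lines, U87MG and U251. The SRSF1 knockdown libraries (KD) came from cells carrying a lentiviral short hairpin against SRSF1, a splicing factor of the SR family. Control libraries (WT in the sample titles) came from cells with a negative control hairpin, so both arms were infected, at a multiplicity of infection of 20, and selected in puromycin for 1 week. There was 1 library per line and arm, each from a stably selected population. A difference within a line therefore has no replicate check, and the knockdown is replicated only across the 2 lines.

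Replication-dependent histone mRNAs end in a conserved stem-loop instead of a poly(A) tail. SLBP binds that stem-loop, and the U7 small nuclear ribonucleoprotein, with its Sm-like proteins LSM10 and LSM11, pairs with an element downstream of it. CASP8AP2, also called FLASH, binds LSM11 and helps to recruit a cleavage complex of SYMPK, CPSF2, CPSF3 and CSTF2, in which CPSF3 is the endonuclease. NPAT is a coactivator of histone gene transcription and a substrate of cyclin E with CDK2. When cleavage does not take place, transcription can run on to poly(A) signals further downstream, and poly(A) selection captures such longer forms better than the stem-loop form.

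The stem-loop that these factors act on is shown for 1 gene of each core histone class that rose in the knockdown libraries (values below). The sequences are from GENCODE 29 transcripts on GRCh38, all of genes on chromosome 6, with both arms of the stem in capitals.

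HIST1H2AC: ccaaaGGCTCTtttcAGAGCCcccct
HIST1H2BD: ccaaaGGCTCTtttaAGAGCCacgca
HIST1H3E: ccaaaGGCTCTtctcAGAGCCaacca
HIST1H4H: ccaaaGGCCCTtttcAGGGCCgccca

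All 4 have a stem of 6 base pairs and a loop of 4 bases. The histone stem-loop consensus was found, on the transcript strand, in annotated transcripts of 33 of the 71 listed replication-dependent histone genes and of 92 of 57133 genes searched (0.161%). The search used a fixed pattern on annotated transcripts, so a gene without a match cannot be said to lack a stem-loop. Annotated transcripts differ in how far they run on: 1128 bases follow the stem-loop in HIST1H2AC-201 and 1862 bases in HIST1H3E-202, but 39 bases in HIST1H2BD-202 and 5 bases in HIST1H3E-201.

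The RNA partner of LSM10 and LSM11 is the U7 small nuclear RNA of 63 bases, encoded by RNU7-1 on chromosome 12. It is shown because its Sm site, in capitals, is where the ring that holds LSM10 and LSM11 assembles.

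RNU7-1: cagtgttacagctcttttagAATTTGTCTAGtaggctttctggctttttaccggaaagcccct

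This RNA has no poly(A) tail. Each knockdown library had 2 reads on it, against 8 reads in the U87MG control and 3 reads in the U251 control, and the counting intervals of both ratios include 1.

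Values are RPKM, reads per kilobase of gene model scaled to library size, so levels can be compared between genes. The libraries held 25974900 reads in the U87MG knockdown, 26298575 in the U87MG control, 27953878 in the U251 knockdown and 25099799 in the U251 control, as recovered from the RPKM steps. Ratios given with a sign are differences in log2(RPKM + 1), knockdown minus control, a scale that shrinks the differences of weakly expressed genes. Over the 16098 genes that reached 1 RPKM in at least 1 library, the median ratio was -0.05 in U87MG and -0.00 in U251. SRSF1 itself was at 14.6 RPKM in the U87MG knockdown against 88.3 RPKM in its control, and at 15.8 RPKM in the U251 knockdown against 109 RPKM in its control. A share of 0.594 of the 31-base words of its longest coding transcript also occurs in another gene. SRSF1 exons overlap those of a gene annotated on the same strand, and how much of that share lies in the overlap was not tested. The limma estimate for SRSF1 was -2.62 ± 0.16 (SE, n = 2 libraries per arm, adjusted p = 0.0022), a call lost with no filter on low values (0.42) or without the cell line block. Of 8 markers of glioblastoma cell lines, 6 reached 1 RPKM, with VIM at 1065 to 1675 RPKM; GFAP stayed at or below 1.47 RPKM, and SOX2 was at or below 0.121 RPKM in U87MG. Of 9 markers of other brain cells, CD68, SYT1 and MBP reached 1 RPKM. The summed level of those 9 was 117 RPKM in the U87MG knockdown against 68.6 RPKM in its control, and 16.7 RPKM in the U251 knockdown against 15.4 RPKM in its control, most of it CD68 in U87MG. Their part in the results below was not tested. Since these are bulk libraries, fewer cells in a cycle phase and less RNA per cell cannot be told apart.

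All 10 factors were expressed. Their mean levels over the 4 libraries ran from 122 RPKM for SLBP to 1.93 RPKM for LSM11. SLBP, at 90.4 to 138 RPKM, lay above every other factor in every library. CPSF3 (29.9 to 46.2 RPKM), CPSF2 (21.4 to 36.6 RPKM), LSM10 (22.7 to 27.8 RPKM) and CSTF2 (18.8 to 27.6 RPKM) followed, and neighbours in that order had overlapping ranges. SYMPK and CASP8AP2 overlapped likewise, at 12.3 to 16.9 RPKM and 7.57 to 16.2 RPKM. Lowest were ZNF473 (3.80 to 5.37 RPKM), NPAT (1.74 to 5.58 RPKM) and LSM11 (0.616 to 3.47 RPKM), again with overlapping ranges. Of the U7-specific partners, LSM10 was thus above LSM11 in every library.

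**Figure D1:**
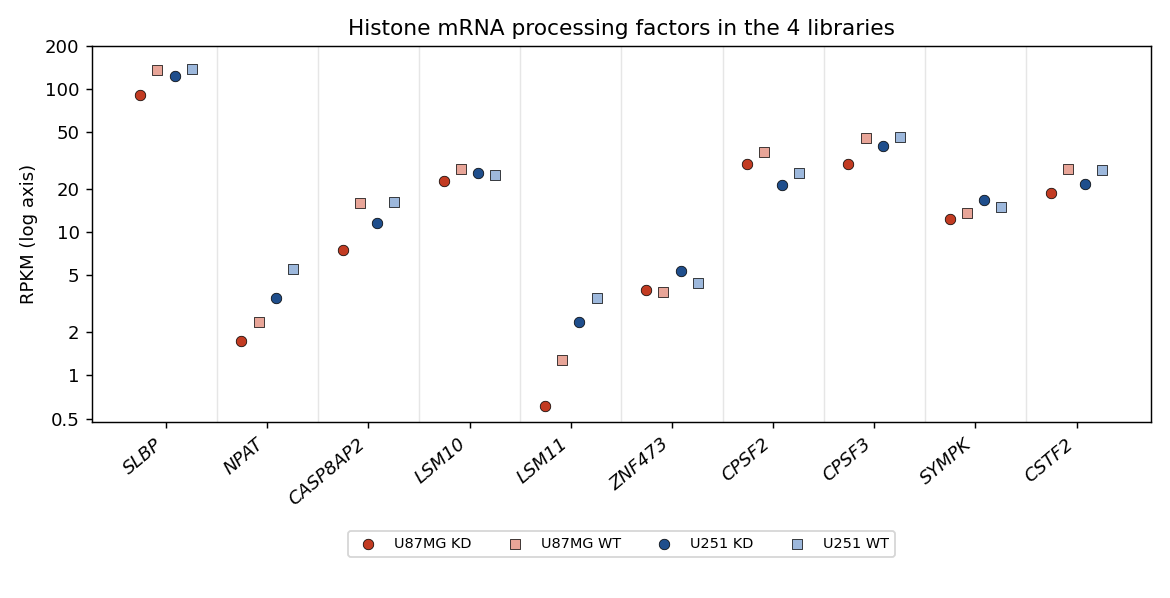
RPKM of the 10 factors on a log axis in the U87MG knockdown, U87MG control, U251 knockdown and U251 control libraries, 1 point per library. SLBP lies above all others, and the points of NPAT and LSM11 are lower in U87MG than in U251.

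The question for each factor was whether its RNA differed between knockdown and control. None of the 10 was called by limma with cell line as a block and Benjamini-Hochberg adjustment over all 16098 genes, where 2.61% of all genes were called lower and 1.16% higher (3.76% together). Higher calls were 30.7% of all calls, and 54.5% after trimmed-mean rescaling of the libraries. At an unadjusted p under 0.05 limma had 4 factors lower (CASP8AP2, CSTF2, NPAT and LSM11) and 0 higher, against 12.8% lower and 8.29% higher over all genes. In U87MG 9 factors were below control, against 55.5% of all genes, and in U251 7 were, against 50.5%. The same 7 were below control in both lines, against 36.5% of all genes. ZNF473 was above control in both lines (29.3% of all genes), and LSM10 and SYMPK were below it in U87MG and above it in U251 (31.8% of all genes had opposite signs). For CASP8AP2, SLBP, CPSF3 and CSTF2 both knockdown libraries were below both controls, against 14.4% of all genes. The median ratio of the 10 was -0.40 in U87MG and -0.24 in U251. On the log2(RPKM + 1) scale 0 factors were 2-fold lower, against 3.58% of all genes in U87MG and 1.71% in U251. Without the added 1, CASP8AP2 and LSM11 were past 2-fold in U87MG, at 0.473 and 0.483 times their control RPKM. CASP8AP2 had the largest limma estimate of the 10.

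CASP8AP2 lies on chromosome 6 from 89829894 to 89874436, forward strand (GRCh38). It stood at 7.57 RPKM in the U87MG knockdown against 15.99 RPKM in the U87MG control, and at 11.6 RPKM in the U251 knockdown against 16.2 RPKM in the U251 control. Both knockdown libraries were below both controls, which were nearly equal. Counted in recovered reads and scaled by depth, knockdown over control was 0.473 in U87MG, with a counting interval (95%, Clopper-Pearson) of 0.443 to 0.506. In U251 it was 0.715, with an interval of 0.675 to 0.756. The ratios were -0.99 and -0.45, and limma gave -0.72 ± 0.19 (SE, n = 2 libraries per arm, 95% interval -1.16 to -0.28, adjusted p = 0.082). With genes restricted to those reaching 5 RPKM the same estimate had an adjusted p of 0.037 by limma, and over the alternatives tried the adjusted p ran from 0.037 to 1.

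NPAT, the transcription coactivator, lies on chromosome 11 from 108157215 to 108222642, reverse strand. It stood at 1.74 RPKM in the U87MG knockdown against 2.37 RPKM in its control, and at 3.46 RPKM in the U251 knockdown against 5.58 RPKM in its control. The knockdown was the lower library in each line, but the groups overlap across lines, since U251 had more NPAT RNA in both arms. Its limma estimate was -0.43 ± 0.18 (n = 2 libraries per arm, 95% interval -0.84 to -0.02, adjusted p = 0.22). It was the only factor whose ratio was lower in U251 (-0.56) than in U87MG (-0.30).

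NPAT and ATM, the gene of a DNA damage kinase, lie head to head on opposite strands. The promoter windows of NPAT and ATM in the RefSeq table (GRCh38.p14, each 250 bases before to 50 bases after a start) share 72 bases at chr11:108222817-108222888, printed here on the forward strand because both genes are read outward from it.

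NPAT and ATM: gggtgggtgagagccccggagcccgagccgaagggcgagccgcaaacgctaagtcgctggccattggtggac

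ATM stood at 1.99 RPKM in the U87MG knockdown against 2.92 RPKM in its control, and at 4.70 RPKM in the U251 knockdown against 6.07 RPKM in its control. ATM thus had the same order of libraries as NPAT, with U251 above U87MG, and its limma estimate for the knockdown was -0.35 ± 0.17 (n = 2 libraries per arm, adjusted p = 0.28). Exons of NPAT overlap exons of ATM on the other strand, and no source used here states whether counting used strand, so reads in that overlap cannot be assigned to either gene. ATM is included for its position.

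SLBP lies on chromosome 4 from 1692800 to 1712555, reverse strand. It stood at 90.4 RPKM in the U87MG knockdown against 135 RPKM in the U87MG control, and at 124 RPKM in the U251 knockdown against 138 RPKM in the U251 control. Both knockdown libraries were below both controls, with the U87MG knockdown lowest. From at least 4722 reads per library, the read ratio was 0.669 in U87MG (counting interval 0.645 to 0.694) and 0.902 in U251 (0.872 to 0.932). Across lines limma gave -0.36 ± 0.17 (n = 2 libraries per arm, 95% interval -0.76 to 0.03, adjusted p = 0.27), so a fall of SLBP was not shown. SLBP protein is known to be controlled through the cell cycle mainly by its translation and degradation, which RNA levels do not show.

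LSM10 and LSM11 are the U7-specific proteins. LSM10, on chromosome 1 from 36391238 to 36397892, reverse strand, stood at 22.7 RPKM in the U87MG knockdown against 27.8 RPKM in its control, and at 26.0 RPKM in the U251 knockdown against 25.2 RPKM in its control. Its knockdown and control values overlap across lines, and the U251 difference lay within counting error (read ratio 1.03, counting interval 0.916 to 1.16). The limma estimate was -0.12 ± 0.17 (n = 2 libraries per arm, 95% interval -0.52 to 0.28, adjusted p = 0.73). LSM11, on chromosome 5 from 157743695 to 157760709, forward strand, stood at 0.616 RPKM in the U87MG knockdown against 1.28 RPKM in its control, and at 2.35 RPKM in the U251 knockdown against 3.47 RPKM in its control. The knockdown was lower in each line, from 41 reads in the U87MG knockdown against 86 reads in its control, and from 168 reads in the U251 knockdown against 223 reads in its control. The read ratio of LSM11 was 0.483 in U87MG (counting interval 0.324 to 0.708) and 0.676 in U251 (0.5504 to 0.830), and limma gave -0.46 ± 0.19 on the log2(RPKM + 1) scale (n = 2 libraries per arm, adjusted p = 0.22).

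ZNF473, the zinc finger protein ZFP100 that binds LSM11 and contacts SLBP on the stem-loop, lies on chromosome 19 from 50025714 to 50053414, forward strand. It stood at 3.95 RPKM in the U87MG knockdown against 3.80 RPKM in its control, and at 5.37 RPKM in the U251 knockdown against 4.41 RPKM in its control. This was the only factor with a higher knockdown value in both lines, though the difference in U87MG lay within counting error (read ratio 1.04, counting interval 0.916 to 1.18). The limma estimate was 0.14 ± 0.17 (n = 2 libraries per arm, 95% interval -0.25 to 0.53, adjusted p = 0.68). Exons of ZNF473 overlap exons of VRK3 on the other strand, so its values carry the same doubt as those of NPAT.

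The cleavage complex differed from subunit to subunit. CPSF3, the endonuclease, on chromosome 2 from 9423568 to 9473101, forward strand, stood at 29.9 RPKM in the U87MG knockdown against 45.3 RPKM in its control, and at 39.7 RPKM in the U251 knockdown against 46.2 RPKM in its control. Both knockdown libraries were below both controls, with an estimate of -0.40 ± 0.17 by limma (n = 2 libraries per arm, 95% interval -0.80 to 0.01, adjusted p = 0.24). CSTF2, the RNA-binding subunit shared with cleavage stimulation factor, on chromosome X from 100820359 to 100840932, forward strand, stood at 18.8 RPKM in the U87MG knockdown against 27.6 RPKM in its control, and at 21.6 RPKM in the U251 knockdown against 27.1 RPKM in its control. Again the groups did not overlap, with an estimate of -0.42 ± 0.17 by limma (n = 2 libraries per arm, 95% interval -0.81 to -0.04, adjusted p = 0.20).

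CPSF2, the inactive partner of CPSF3 in the same protein family, lies on chromosome 14 from 92121937 to 92172145, forward strand. It stood at 29.9 RPKM in the U87MG knockdown against 36.6 RPKM in its control, and at 21.4 RPKM in the U251 knockdown against 26.0 RPKM in its control. The difference was nearly the same in both lines, with ratios of -0.29 and -0.27, and limma gave -0.28 ± 0.16 (n = 2 libraries per arm, adjusted p = 0.37). That near equality depends on the scaling, since trimmed-mean rescaling gave CPSF2 ratios of -0.18 in U87MG and -0.26 in U251. SYMPK, the scaffold of the complex, whose exons also overlap a gene on the other strand, lies on chromosome 19 from 45815410 to 45863290, reverse strand. It stood at 12.3 RPKM in the U87MG knockdown against 13.5 RPKM in its control, and at 16.9 RPKM in the U251 knockdown against 14.99 RPKM in its control. Symplekin RNA was thus slightly lower in the U87MG knockdown and slightly higher in the U251 knockdown, and the limma estimate was 0.02 ± 0.17 (n = 2 libraries per arm, 95% interval -0.38 to 0.41, adjusted p = 0.97).

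**Figure D2:**
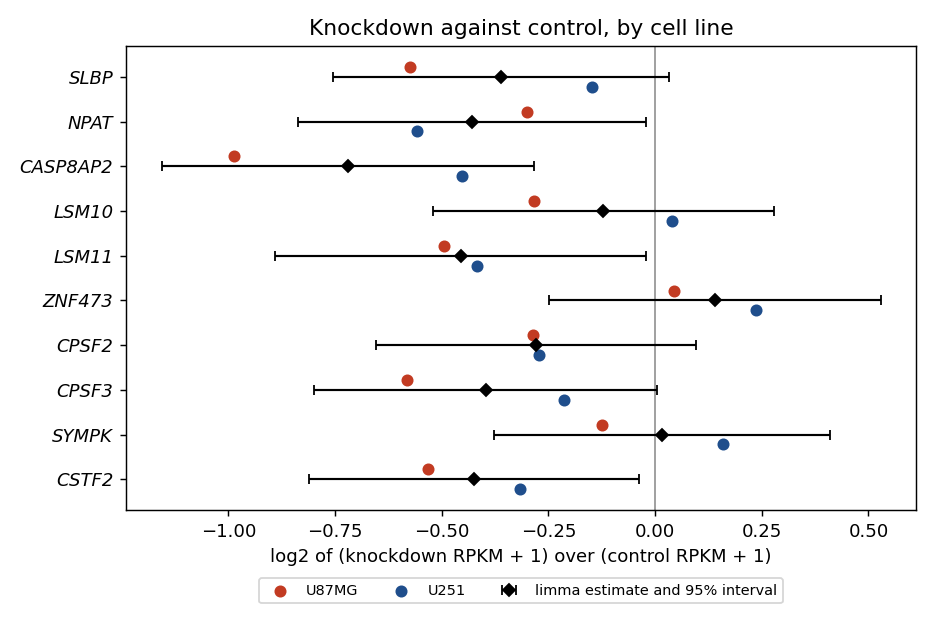
Log2 ratio of knockdown over control for each factor in U87MG and U251 (points) and the limma estimate over both lines with its 95% interval (diamonds and bars). The intervals of CASP8AP2, NPAT, LSM11 and CSTF2 lie below 0 before adjustment, and the U87MG point is left of the U251 point for every factor except NPAT.

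For 9 of the 10 factors the U87MG ratio was below the U251 ratio, as it was for 57.1% of all genes. After trimmed-mean rescaling or quantile normalization this held for 8, because CPSF2 turned round. The gap was widest for CASP8AP2 (-0.54) and SLBP (-0.43) and narrowest for CPSF2 (-0.01). A test of these gaps is not possible, because 1 library per line and arm leaves no residual degree of freedom for an interaction.

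The lines themselves differed in a few factors, with the arm as a covariate in the same fit. The 2 libraries of a line are its knockdown and its control. The errors and p-values here therefore do not cover the spread between cultures of a line. LSM11 was lower in U87MG by 1.01 ± 0.19 on the log2 scale (SE, 2 libraries per line, adjusted p = 0.0035 by limma), at 0.263 times the U251 level in the knockdown libraries and 0.368 times in the controls. NPAT was also lower in U87MG, at 0.502 times the U251 level in the knockdown libraries and 0.425 times in the controls (adjusted p = 0.0062 by limma). CPSF2 was higher in U87MG, by 1.40-fold in the knockdown libraries and 1.41-fold in the controls (adjusted p = 0.043 by limma). The call of CPSF2 was lost without the intensity trend (adjusted p = 0.056), and all 3 were lost with no filter on low values (adjusted p = 0.053 to 0.074 by limma). Over all genes 48.6% were called between the lines (27% lower and 21.6% higher in U87MG), so 3 of 10 is not a high share. The intervals of the other 7 spanned 0, the widest reaching from -0.73 to 0.15 for CASP8AP2.

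Of the 10 promoters, 9 had a window in the RefSeq table. An octamer of the E2F type (TTTCCCGC, TTTCGCGC, TTTGCCGC or TTTGGCGC, either strand) occurred in 3 of the 9 and in 3.31% of all 35116 windows. The 3 are CASP8AP2, CPSF3 and CSTF2, all with the same octamer on the transcript strand. Each is shown with 20 bases on either side and the octamer in capitals (GRCh38.p14; chr6:89829711-89829758, chr2:9423416-9423463 and chrX:100820365-100820412).

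CASP8AP2: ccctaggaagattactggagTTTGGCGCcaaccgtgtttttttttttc
CPSF3: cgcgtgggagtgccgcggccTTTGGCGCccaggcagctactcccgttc
CSTF2: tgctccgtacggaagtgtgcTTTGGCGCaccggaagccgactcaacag

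Counted from the RefSeq starts of these windows, the octamer begins 149 bases before the start of CASP8AP2, 218 bases before that of CPSF3 and 6 bases before that of CSTF2. The GENCODE starts given with the gene positions differ: from them the octamer begins 163 bases before CASP8AP2 and 132 bases before CPSF3, and it lies inside the gene model of CSTF2. Of the 7 factors below control in both lines, these 3 hold an octamer, and SLBP, NPAT, LSM11 and CPSF2 hold none in their windows. Of the remaining factors, LSM10 and SYMPK hold none either, and ZNF473 had no window. Whether the octamer bears on the ratios was not tested. The pentamer CCAAT, on either strand, occurred in 4 of the 9 windows (NPAT, CASP8AP2, LSM10 and CPSF2) and in 34.6% of all windows.

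Of 9 measured genes of histone gene transcription, the list nearest to NPAT, limma called CCNE2 and E2F1 lower and 0 higher. Over all genes it called 2.61% lower and 1.16% higher. The list median was -0.29 in U87MG and -0.41 in U251. CCNE2, encoding cyclin E2, which with CDK2 phosphorylates NPAT, fell by 1.95 on the log2 scale (SE 0.17, 95% interval -2.35 to -1.55, adjusted p = 0.0062 by limma). E2F1, a transcription factor of the G1/S switch, fell by 1.01 (SE 0.20, adjusted p = 0.039 by limma). The kinase gene CDK2 was not called, with U87MG at -1.01 and U251 at -0.52. CCNE1, encoding cyclin E1, had ratios of 0.01 in U87MG and of -0.91 in U251, and HINFP, the histone H4 promoter factor, 0.53 and 0.12.

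SLBP protein is removed at the end of S phase. Of 7 measured genes of SLBP turnover, limma called 3 lower and 0 higher, against 2.61% and 1.16% of all genes. CCNA2, encoding cyclin A2, fell by 1.22, CDK1 by 1.19 and CCNF, encoding cyclin F, by 1.08 on the log2 scale. CCNF stood at 1.16 RPKM in the U87MG knockdown against 3.64 RPKM in its control, and at 4.13 RPKM in the U251 knockdown against 9.74 RPKM in its control. CSNK2A1, CUL3 and DCAF11, of the same list, were not called and had ratios between -0.19 and 0.03. These 5 calls in the pathway lists were lost after trimmed-mean rescaling (5 genes called lower and 6 higher in all), with no filter on low values and without the cell line block (0 called in all for both). The call of E2F1 was also lost without the intensity trend (adjusted p = 0.067 by limma).

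No gene was called in the other lists of the pathway. Among 16 genes of the general polyadenylation machinery, 15 had a U87MG ratio below 0 and 10 a U251 ratio below 0. Over all genes 55.5% were below 0 in U87MG and 50.5% in U251. The list medians were -0.24 and -0.05, and limma called 0 in either direction. At an unadjusted p under 0.05 limma had 0 of the list, against 12.8% lower and 8.29% higher over all genes. CSTF2T, the autosomal paralog of CSTF2, stood at 12.8 RPKM in the U87MG knockdown against 21.8 RPKM in its control, and at 9.55 RPKM in the U251 knockdown against 10.6 RPKM in its control, and so was the less abundant of the pair in all 4 libraries. CPSF4, a zinc finger subunit of the poly(A) signal recognition complex, had ratios of -0.71 and -0.12. PAPOLA, the poly(A) polymerase, was close to no difference at -0.07 and -0.06.

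The Sm proteins that U7 shares with spliceosomal particles had medians of -0.19 in U87MG and -0.08 in U251 over 5 genes, with 0 called by limma and 1, SNRPB, lower at an unadjusted p under 0.05 (ratios -0.62 and -0.39). SNRPD3, one of the Sm proteins that stay in the U7 ring, had ratios of -0.33 and 0.03. The 10 genes of the cap-binding complex, ARS2, NELF and CDK9, which link transcription to histone 3' end formation, had medians of -0.27 and 0.04. There limma called 0, and NCBP1, the large cap-binding subunit, was the only one with an unadjusted p under 0.05 (ratios -0.70 and -0.18). Over all genes 12.8% were lower at that unadjusted p by limma, so 1 gene in such short lists does not stand out. SRRT, encoding ARS2, had ratios of -0.41 and -0.01, and CDK9 0.21 and 0.37.

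Among 18 genes of histone mRNA translation and decay limma called 0, with 3 lower and 0 higher at an unadjusted p under 0.05 and medians of -0.26 and 0.01. Over all genes 12.8% were lower at that unadjusted p, and the counts in this list and in Integrator are near that share. EXOSC10, a nuclear exosome nuclease, had ratios of -0.68 and -0.40, and SMG1, a kinase of the UPF1 pathway, -0.48 and -0.51. ERI1, the exonuclease that trims the histone stem-loop end, had ratios of -0.30 and -0.18. The Integrator complex, whose catalytic subunit is a CPSF3 relative, had 14 measured genes with medians of -0.28 and -0.17, 0 called by limma and 2 lower at an unadjusted p under 0.05 (INTS8 and ASUN). CPSF3L, that relative, stood at 13.6 RPKM in the U87MG knockdown against 12.6 RPKM in its control, and at 12.7 RPKM in the U251 knockdown against 8.55 RPKM in its control, on the other side of its control from CPSF3 in both lines. Its difference in U87MG lay within counting error (read ratio 1.07, counting interval 0.982 to 1.175), and limma did not call it (adjusted p = 0.37).

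**Figure D3:**
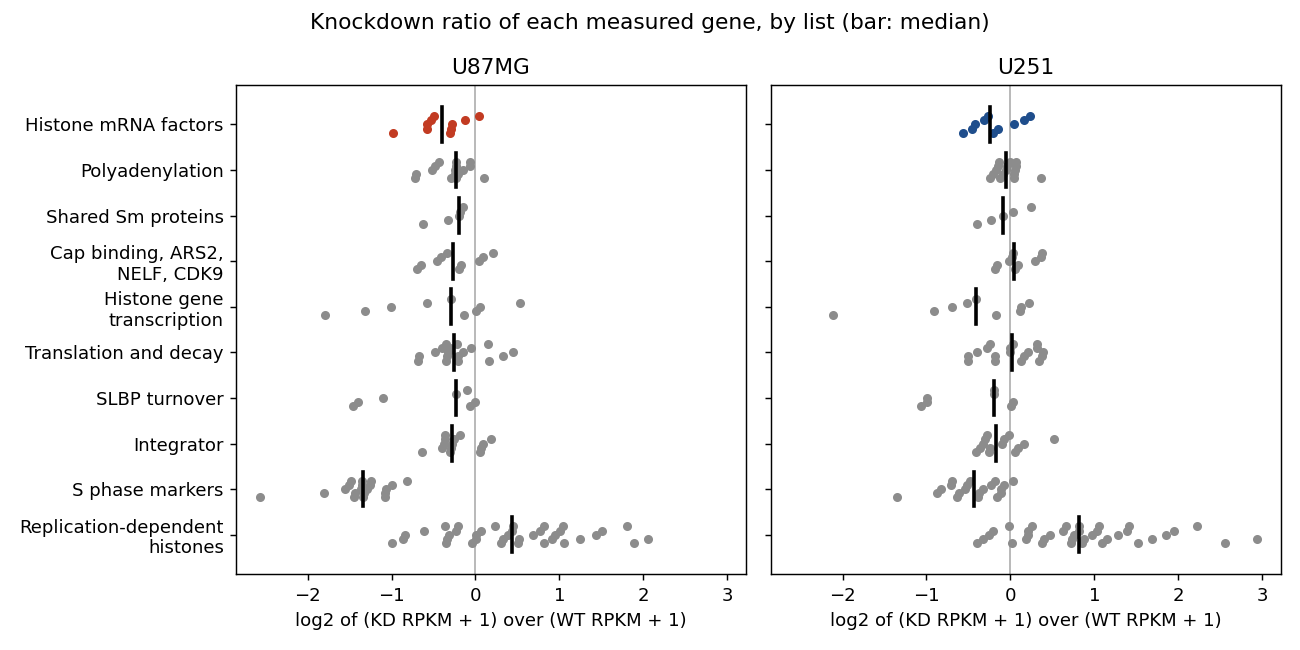
Log2 ratio of knockdown over control of each measured gene in U87MG (left) and U251 (right) for the 10 histone mRNA factors (coloured), their pathway lists, S phase markers and replication-dependent histones; black bars are list medians. The factors centre on -0.40 and -0.24, S phase markers on -1.35 and -0.43, and histones on 0.44 and 0.81.

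S phase markers were lower in the same libraries, with medians further from 0 than those of the factors. Ratios were below 0 for all 20 in U87MG and for 19 in U251, against 55.5% and 50.5% of all genes. The list medians were -1.35 and -0.43. Of the 20, limma called 7 lower and 0 higher, against 2.61% and 1.16% of all genes. These 7 calls were lost under the same 3 settings. RRM2, a ribonucleotide reductase subunit, stood at 18.2 RPKM in the U87MG knockdown against 113 RPKM in its control, and at 66.2 RPKM in the U251 knockdown against 171 RPKM in its control. The summed level of the 20 was 434 RPKM in the U87MG knockdown against 1148 RPKM in its control, and 875 RPKM in the U251 knockdown against 1265 RPKM in its control. The part of cell cycle phase in the values of the 10 factors was not tested.

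Of 37 measured replication-dependent histone genes, out of 71 listed, limma called 13 higher and 0 lower, against 1.16% and 2.61% of all genes. The medians were 0.44 in U87MG and 0.81 in U251. A gene was measured if it reached 1 RPKM in any library. Many did so only in knockdown libraries, among them HIST1H2AD, HIST1H2AK, HIST1H3D, HIST1H3E and HIST1H4H, all of which were called higher. Only HIST1H1B and HIST2H2AC did so in control libraries alone. The filter thus let in more genes through a high knockdown value than through a high control value. The count of calls and the medians therefore depend in part on this filter. Ratios were below 0 for 11 of the 37 in U87MG and for 5 in U251, of which 3 were below 0 in both lines. The shares over all genes were 55.5%, 50.5% and 36.5%. HIST1H2AC stood at 26.1 RPKM in the U87MG knockdown against 6.74 RPKM in its control, and at 81.2 RPKM in the U251 knockdown against 9.69 RPKM in its control, and rose by 2.37 on the log2 scale. HIST1H2BD rose by 2.22 (SE 0.20), HIST1H3E by 1.195 and HIST1H4H by 1.14 on the log2 scale, and their stem-loops are those printed above. HIST1H3E stood at 2.14 RPKM in the U87MG knockdown against 0.326 RPKM in its control, and at 1.84 RPKM in the U251 knockdown against 0.282 RPKM in its control. For HIST1H4H these values were 2.78 against 0.882 RPKM and 2.81 against 0.569 RPKM. Both genes were near the floor and reached 1 RPKM only in knockdown libraries. H2AFX, whose gene gives both a stem-loop and a polyadenylated mRNA, stood at 12.2 RPKM in the U87MG knockdown against 25.2 RPKM in its control, and at 43.8 RPKM in the U251 knockdown against 55.3 RPKM in its control. Histone genes have near-identical copies, and how the counting treated reads shared by copies is not known, so single-gene values are uncertain. After trimmed-mean rescaling 1 histone gene was called higher, and 0 with no filter or without the block. Whether the levels of the 10 factors bear on the histone RNA was not tested.

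The genes whose pattern over the 4 libraries was most like that of CASP8AP2, the factor furthest from no difference, were CEP76, PAK4, CCP110 and CTPS1. The likeness is the Euclidean distance between log2(RPKM + 1) values centred on each gene's own mean, from 0.028 for CEP76 to 0.087 for CTPS1, among 10751 genes reaching 5 RPKM. CEP76 and CCP110 encode centriole proteins, PAK4 a kinase and CTPS1 a CTP synthase. CCP110, as an example, stood at 5.07 RPKM in the U87MG knockdown against 10.99 RPKM in its control, and at 8.12 RPKM in the U251 knockdown against 12.0 RPKM in its control. With 4 libraries such a ranking only describes these values.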

How the data were processed

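The data are 4 poly(A) RNA-seq libraries grouped by sample title. Values in the deposited table are RPKM per gene, which the authors computed. The submitters' processing notes name Bowtie 0.12.2 and the hg19 build. The counter, the annotation, strand use and the treatment of multiply mapping reads: not given in the sources used here. The 10 genes and the gene lists were chosen with earlier results of these data known.

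Steps between low RPKM values gave each library's depth and, since gene lengths are whole, its total. With these totals 193 of 193 genes examined gave whole reads in every library within 0.01 reads, as did 299 of 300 random genes (2 of 300 after scrambling). Read counts and model lengths are the smallest that fit. Counting intervals are 95% Clopper-Pearson intervals of the knockdown share, scaled by depth. No source names molecular identifiers, so these intervals cover counting error only.

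Tests used limma 3.58.1 (R 4.3.3) on log2(RPKM + 1), two-sided, with cell line as a block, an intensity trend and Benjamini-Hochberg adjustment over 16098 genes. With 1 residual degree of freedom per gene the test leans on variance shared across genes. Separate infections are not stated, and the p-values then rest on the spread of these 4 libraries alone. Named genes were SRSF1, the 10 factors, per list the called genes (at most 4, by estimate) or else the 2 with the largest estimate, CSTF2T, CPSF3L, SNRPD3 and the 4 genes nearest in pattern to the furthest factor. The others named (ATM, CDK2, CCNE1, HINFP, CSNK2A1, CUL3, DCAF11, PAPOLA, SRRT, CDK9, ERI1, H2AFX, HIST1H3E, HIST1H4H, SOX2 and MBP) were chosen after their values were seen. Alternatives varied pseudocount, filter, scaling, trend and block; a ratio of recovered reads was added after seeing the data. Positions and sequences are from GENCODE 29 (GRCh38) and RefSeq (GRCh38.p14), and none were converted. Of the 31-base words of the longest coding transcript, at most a share of 0.0527 occurs in another gene for any of the 10 factors. Other software was scipy 1.17.1, pandas 2.3.3, matplotlib 3.10.9, numpy 2.4.6 and Python 3.11.15.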

Additional observations from a re-analysis of the deposited data

Results flagged for a closer look

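For these genes the knockdown library lay on opposite sides of its control in the cell lines, which is why they are listed. LSM10 was at -0.28 in U87MG and at 0.04 in U251, where the counting interval of its read ratio was 0.916 to 1.16. SYMPK was at -0.13 in U87MG and at 0.16 in U251. SNRPD3 was at -0.33 and 0.03, with a U251 counting interval of 0.983 to 1.07. NELFB, a subunit of negative elongation factor, was at -0.64 and 0.02, with a U251 counting interval of 0.902 to 1.14. The U251 intervals of LSM10, SNRPD3 and NELFB include a ratio of 1, so the U251 side of these genes is within counting error. GFAP, the astrocyte filament gene, was at 0.035 in U87MG, where it was at 0.0499 RPKM (2 reads) in the knockdown against 0.0246 RPKM (1 read) in the control, and at -0.65 in U251. The difference between lines was not tested for any of these genes, as each line has 1 library per arm.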

How the results depend on the processing

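Changing pseudocount, scaling or filter turned no factor's ratio round in either line. With the filter of 5 RPKM LSM11 was not tested, so 8 factors were below control in U87MG and 6 in U251. That filter called 1 factor lower (CASP8AP2), against 0 under every other setting, and 0 higher. Without the replicate block for cell line, and also with no filter on low values, 0 genes were called lower and 0 higher over all genes (183 lower and 79 higher at an unadjusted p under 0.05 by limma without the block), along with 0 genes of the 7 pathway lists, 0 S phase markers and 0 histones; with no filter 0 factors were called between the lines. Trimmed-mean rescaling left 5 genes called lower and 6 higher, so the share of higher calls was 54.5% against 30.7%, with 0 pathway genes, 0 S phase markers and 1 histone called. Without the intensity trend 172 genes were called lower and 88 higher, and 2 S phase markers. A filter of 5 RPKM left 10752 genes tested, with 608 called lower and 301 higher, 12 S phase markers lower and 7 histones higher. Most of the 37 measured histone genes stayed below that filter, so these 7 calls come from fewer genes. HIST1H2BC, HIST1H2BD and HIST2H2BE passed it only in knockdown libraries. Quantile normalization gave 315 genes higher. The cause of these changes was not tested. The line difference, not called, changed sign after trimmed-mean rescaling for LSM10 (0.0585) and CSTF2 (0.0026). Leaving out either line leaves the other line's ratio, with no test. SRSF1 kept its estimate of -2.62 but was not called without the block (adjusted p = 1 by limma) or with no filter (0.42). Depth limits LSM11 most, with 41 reads in the U87MG knockdown.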

Other observations

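The recovered gene model lengths describe what the histone values count. Of the 37 measured replication-dependent histone genes, 9 had models of 1000 bases or more, with median ratios of 1.01 in U87MG and 1.28 in U251, and limma called 6 of them higher. The other 28 had models under 1000 bases, medians of 0.27 and 0.73, and 7 called higher. HIST1H2AC had a model of 1698 bases and HIST1H2BD one of 1579 bases, both longer than a coding sequence of this family with a stem-loop end. HIST1H2BK, with 97.7 RPKM in the U87MG knockdown against 22.7 RPKM in its control, had a model of 839 bases. Lengths are the smallest that fit, and can be too short for genes with few reads. The division at 1000 bases was made after the values were seen, and no test was run on it. Among the longer models, HIST1H3E, HIST1H4H, HIST1H2BN and HIST2H4B reached 1 RPKM only in knockdown libraries. Among the shorter, HIST1H2AD, HIST1H2AI, HIST1H2AK, HIST1H2BF, HIST1H2BO, HIST1H3D, HIST1H3G, HIST1H4E, HIST2H2AA3, HIST2H2AA4 and HIST2H4A did. HIST1H1B and HIST2H2AC, also shorter, reached it only in control libraries. Genes that passed only in knockdown libraries were measured because their knockdown value was high. These medians and calls therefore cannot show whether longer models rise more.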
